A study of Mus musculus with 8 samples.

Results

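The genes described here are those of the phagocyte NADPH oxidase and of the enzymes that remove its products. They are the oxidase subunit genes Cybb, Cyba, Ncf1 and Ncf4, the GTPase gene Rac2, the proton channel gene Hvcn1, the superoxide dismutase genes Sod1 and Sod2, and the catalase gene Cat. They were chosen by name, and all 9 have a row among the 15336 genes of the count table. They were measured by messenger RNA sequencing in Ly6Chi monocytes, blood-derived inflammatory cells recruited to sites of damage. The cells were sorted from livers of C57BL/6 males aged 8 weeks. All mice had been fasted for 12 h and injected with 300 mg/kg acetaminophen 24 h before, a dose that injures the liver (acetaminophen-induced liver injury, AILI). The groups were 4 LysMDCommd10 mice (numbers 5, 6, 12 and 13), called deficient here, and 4 weight-matched Commd10fl/fl littermates (numbers 2, 3, 10 and 11), called controls. Both groups carry floxed Commd10 alleles, and neither contains an uninjured liver.

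The Cre recombinase of LysMDCommd10 mice is expressed from the lysozyme M gene Lyz2, which is active in monocytes, macrophages and neutrophils, so the deletion is not limited to the sorted cells. A Cre control with unmodified Commd10 is not among the groups, and COMMD10 loss, the Cre and its insertion in Lyz2 cannot be told apart. Each library has an animal number of its own, and p-values measure the spread between these libraries. The submitters' descriptions write the animal names in a pair of styles. By these styles the mice fall into a lower-numbered set (deficient 5 and 6, controls 2 and 3) and a higher-numbered set (deficient 12 and 13, controls 10 and 11). They are called label sets, and what distinguishes them is not stated in the labels. Total counts ranged from 13327665 to 15759224. Levels are given as CPM, counts scaled to a common library size after trimmed mean of M-values adjustment. Commd10 averaged 14.2 ± 3.75 CPM in deficient animals and 27.3 ± 2.18 CPM in controls (SD, n = 4 each). On the log2 scale Commd10 fell by 0.94 in deficient animals. Counts of the cre transgene were 122, 94, 37 and 77 in deficient animals 5, 6, 12 and 13, and 0 in each control.

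The phagocyte NADPH oxidase moves electrons from NADPH in the cytosol across a membrane to oxygen and so makes superoxide inside the phagosome or outside the cell. Its membrane part, a flavocytochrome made of gp91phox and p22phox, is silent until cytosolic subunits, p47phox and p40phox among them, and a Rac GTPase bind it. Superoxide is turned into hydrogen peroxide by the superoxide dismutases, and hydrogen peroxide into water and oxygen by catalase and the peroxidases. Monocytes and neutrophils that lack the oxidase cannot kill many ingested microbes, which in people is known as chronic granulomatous disease. In the liver, recruited monocytes and neutrophils are a source of superoxide beside that formed in hepatocytes during acetaminophen injury.

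RefSeq promoter windows on GRCm38.p6 were at hand for 6 of the 9 genes, Cybb, Cyba, Ncf1, Sod1, Sod2 and Cat. They are shown for Cybb and Cat, which were lower in deficient monocytes, and for Ncf1, another oxidase subunit gene, whose level did not pass the test. Each runs 5′ to 3′ on the gene's own strand over the 250 bases before the annotated start and the first 20 bases after it. The Cybb window is chrX:9469305-9469574 on the minus strand, the Cat window chr2:103485134-103485403 on the minus strand, and the Ncf1 window chr5:134229606-134229875 on the minus strand. Capitals mark letters that match one of 6 motifs searched on both strands.
Cybb: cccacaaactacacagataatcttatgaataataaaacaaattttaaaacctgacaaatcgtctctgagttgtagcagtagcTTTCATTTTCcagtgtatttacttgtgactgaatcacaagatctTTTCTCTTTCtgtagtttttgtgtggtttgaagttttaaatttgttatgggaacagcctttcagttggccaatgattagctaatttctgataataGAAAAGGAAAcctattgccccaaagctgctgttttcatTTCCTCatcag
Cat: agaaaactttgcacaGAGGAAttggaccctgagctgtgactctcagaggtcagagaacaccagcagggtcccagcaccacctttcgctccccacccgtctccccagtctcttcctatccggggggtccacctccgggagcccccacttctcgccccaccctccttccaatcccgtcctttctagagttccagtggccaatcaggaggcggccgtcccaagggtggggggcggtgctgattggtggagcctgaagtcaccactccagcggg
Ncf1: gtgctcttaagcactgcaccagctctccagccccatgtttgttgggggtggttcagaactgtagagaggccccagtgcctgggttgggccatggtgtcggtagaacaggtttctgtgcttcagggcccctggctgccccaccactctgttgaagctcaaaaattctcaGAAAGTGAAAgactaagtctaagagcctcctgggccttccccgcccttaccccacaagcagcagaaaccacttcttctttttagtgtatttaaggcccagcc

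In the Cybb window the core of the interferon-stimulated response element, a site for interferon regulatory factors, occurs 3 times. The matches begin 168, 124 and 29 bases before the start. The same core occurs once in the Ncf1 window. Of 32851 promoter windows of 300 bases, 3.44% hold it. GAGGAA, the core bound by PU.1 and other ETS factors, is in the Cat window and, on the opposite strand just after the start, in the Cybb window, and in 28.28% of all windows. The Sod1 window holds TATAAA and TGACNNNGC, the Sod2 window holds GAGGAA, and the Cyba window holds no match. TTGCNNAA, the C/EBP core, and the NF-kB core match in none of the 6 windows and in 10.8% and 1.2% of all. TATAAA is in 13.62% of all windows and TGACNNNGC, the core of the antioxidant response element, in 12.39%. These matches describe the letters of the windows and show no binding.

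Cybb, Rac2 and Cat were lower in deficient monocytes, and the other 6 genes did not pass the test. Cybb was at 0.671 of the control level, Cat at 0.797 and Rac2 at 0.824. The test was the edgeR quasi-likelihood F-test with the label set as a covariate. It was run on 12500 genes, with p-values adjusted by the Benjamini-Hochberg method over all of them and a gene called at an adjusted p under 0.05. It called 13.6% of all genes, 7.17% as lower, so that 3 of 9 genes called lower stand against that background. Without the label set in the model the test called 0 of the 9 genes, 0 of them had an unadjusted p under 0.05, and it called 0 genes of the whole table, whose smallest adjusted p was 0.273. At an unadjusted p under 0.05 that model had 12.5% of all genes. With 1 surrogate variable, estimated from the counts, in place of the label set 0 of the 9 genes passed, and Cybb had a log2 fold change of -0.30. The 3 calls therefore rest on comparing animals within their label set.

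**Figure D1:**
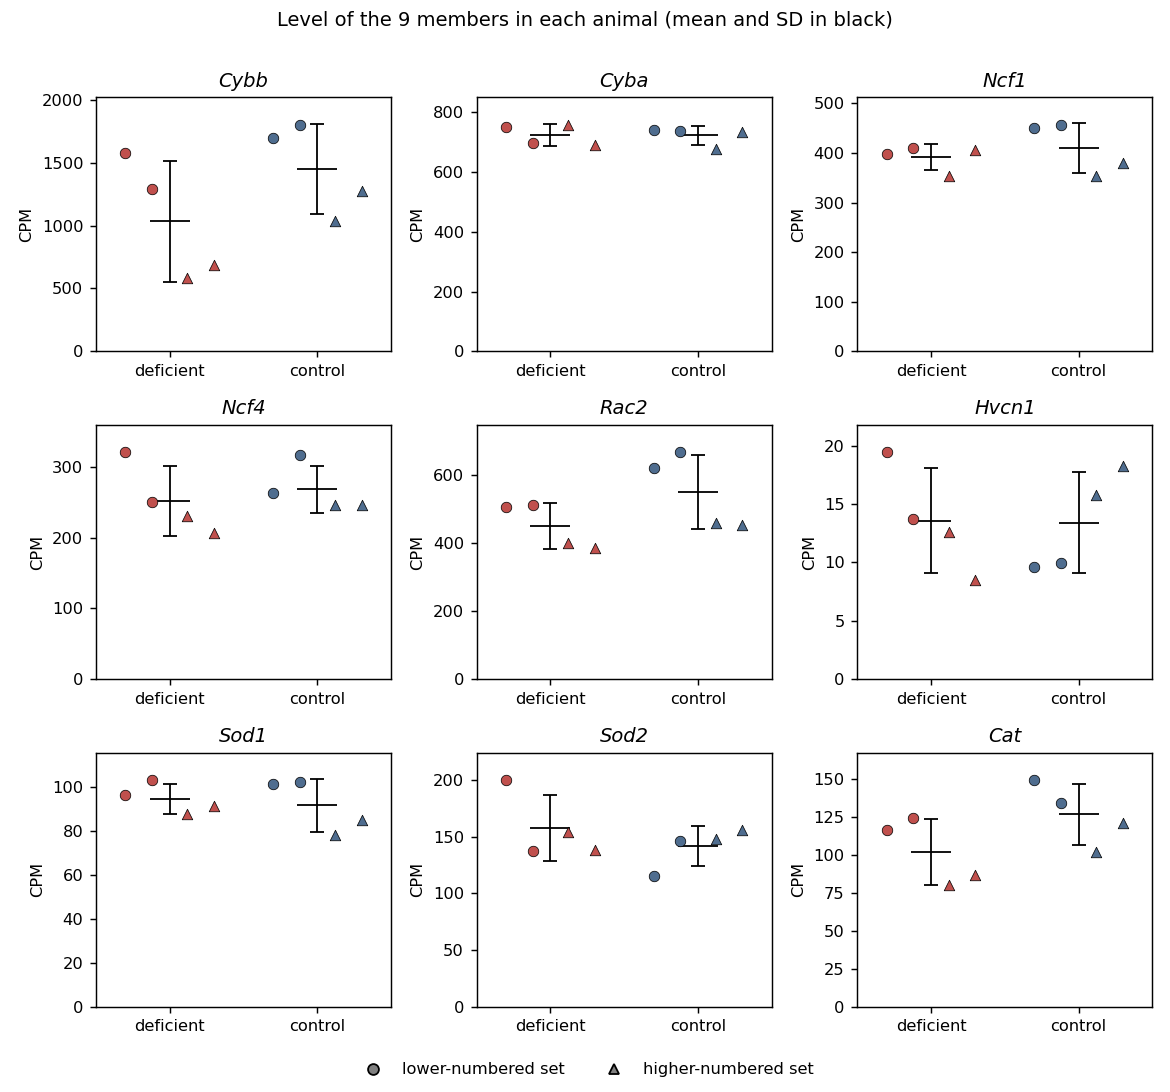
Level of each of the 9 genes in CPM in every animal, with deficient animals in red on the left of each panel and controls in blue on the right. Circles are the lower-numbered and triangles the higher-numbered label set, and the black bars are the mean and SD over 4 animals. Cybb, Rac2 and Cat are lower in each deficient animal than in both controls with the same symbol, while Cyba is at about the same level in all 8 animals.

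Cybb (ENSMUSG00000015340, GRCm38 chromosome X, 9435252 to 9487771, minus strand) encodes gp91phox, the subunit that carries the electrons. Its level was 1579, 1291, 584 and 683 CPM in deficient animals 5, 6, 12 and 13, against 1694, 1801, 1038 and 1272 CPM in controls 2, 3, 10 and 11. The lowest values were those of deficient animals 12 and 13. Over all 8 animals the genotypes overlap, but within each label set both deficient animals were below both controls. Cybb had a log2 fold change of -0.57 (SE 0.13, 95% confidence interval -0.88 to -0.27, edgeR adjusted p = 0.0247), and without the label set the adjusted p was 0.531. By set, it was -0.28 in the lower-numbered animals and -0.87 in the higher-numbered ones. The difference between these values, tested as a genotype by label set interaction, was -0.58 with an unadjusted p of 0.0164 and an edgeR adjusted p of 0.630. In the higher-numbered set alone Cybb was the 1 gene of the 9 that passed (edgeR adjusted p = 0.0184), where 5.21% of all genes did. With 1 animal left out the edgeR adjusted p rose past 0.05 in 4 of 8 cases, to 0.0535 without deficient 6, 0.0741 without deficient 12, 0.0694 without deficient 13 and 0.0543 without control 11.

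Cyba (ENSMUSG00000006519, GRCm38 chromosome 8, 122424776 to 122432930, minus strand) encodes p22phox, the partner that stabilises gp91phox in the membrane. It had 752, 697, 759 and 689 CPM in deficient animals 5, 6, 12 and 13, against 743, 737, 676 and 736 CPM in controls 2, 3, 10 and 11. All 8 values lie close together, and the groups overlap. On the log2 scale the fold change was 0.00 (SE 0.06, 95% confidence interval -0.14 to 0.15, edgeR adjusted p = 0.975). The ratio of Cybb CPM to Cyba CPM was 2.10, 1.85, 0.769 and 0.991 in deficient animals 5, 6, 12 and 13, and 2.28, 2.44, 1.54 and 1.73 in controls 2, 3, 10 and 11. The ratio was thus lower in both deficient animals of each label set than in both controls of that set. With Cyba nearly level, this mostly restates the Cybb values. In deficient animals 12 and 13 alone did Cybb have fewer counts than Cyba. Counts are not scaled to transcript length (4752 bases for Cybb and 744 for Cyba). Per kilobase of transcript Cyba was above Cybb in every animal.

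Ncf1 (ENSMUSG00000015950, GRCm38 chromosome 5, 134220053 to 134229625, minus strand) encodes p47phox, the organiser that brings the cytosolic subunits to the membrane. Its level was 398, 411, 354 and 405 CPM in deficient animals 5, 6, 12 and 13, against 450, 457, 354 and 380 CPM in controls 2, 3, 10 and 11. In the lower-numbered set both deficient animals were below both controls, and in the higher-numbered set the groups overlap. This gave a log2 fold change of -0.06 (SE 0.07, 95% confidence interval -0.22 to 0.10, edgeR adjusted p = 0.606). Ncf1 shares 408 exon bases with Gtf2ird2 on the opposite strand, a gene with 213 to 366 counts a library against 4718 to 6873 for Ncf1. The strand setting of the counting is not given in the sources used here, so reads of that stretch cannot be assigned to a strand.

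Ncf4 (ENSMUSG00000071715, GRCm38 chromosome 15, 78244801 to 78262580, plus strand) encodes p40phox, which binds the phosphoinositide of phagosome membranes. It was at 321, 250, 230 and 207 CPM in deficient animals 5, 6, 12 and 13, against 264, 317, 246 and 247 CPM in controls 2, 3, 10 and 11. The highest value and the lowest were both of deficient animals. Ncf4 had a log2 fold change of -0.10 (SE 0.09, 95% confidence interval -0.31 to 0.11, edgeR adjusted p = 0.512).

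Rac2 (ENSMUSG00000033220, GRCm38 chromosome 15, 78559167 to 78572783, minus strand) encodes the Rac GTPase of blood cells, which completes the active oxidase. Its level was 506, 512, 399 and 387 CPM in deficient animals 5, 6, 12 and 13, against 622, 668, 460 and 454 CPM in controls 2, 3, 10 and 11. Each deficient animal was below both controls of its set, and over all 8 animals the genotypes overlap, since controls 10 and 11 lay below deficient animals 5 and 6. The fold change was -0.28 on the log2 scale (SE 0.06, 95% confidence interval -0.41 to -0.15, edgeR adjusted p = 0.0148), and without the label set the adjusted p was 0.470. By set, it was -0.34 for the lower-numbered animals and -0.22 for the higher-numbered ones (interaction, edgeR adjusted p = 0.908).

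**Figure D2:**
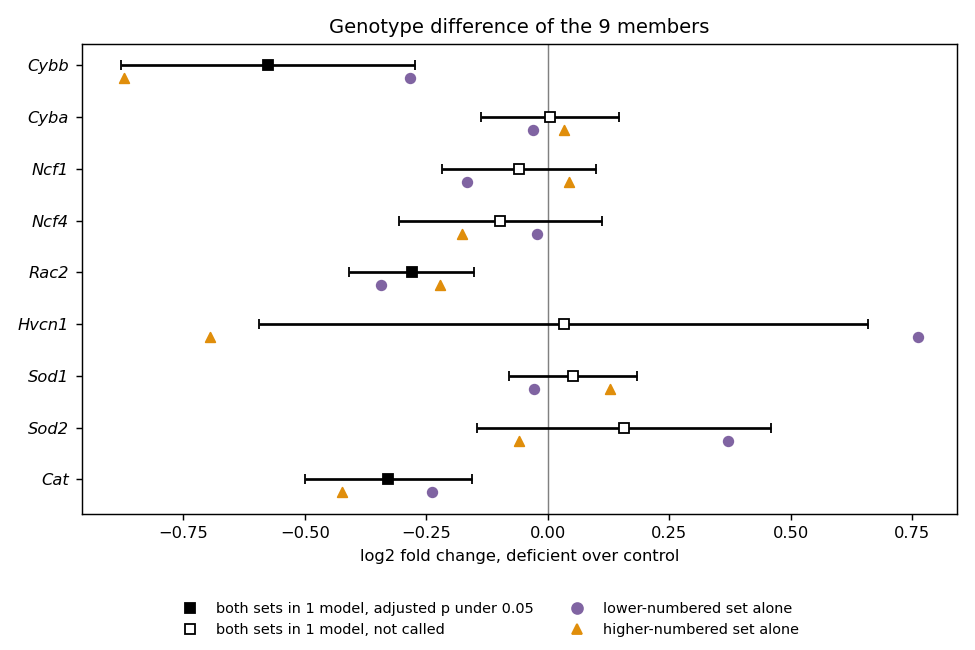
Log2 fold change, deficient over control, of each of the 9 genes with its 95% confidence interval, from the fit that includes the label set, and the values within the lower-numbered set (circles) and the higher-numbered set (triangles). Cybb at -0.57, Cat at -0.33 and Rac2 at -0.28 have intervals below 0, and Hvcn1 has the widest interval, with its sets on opposite sides of 0.

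Hvcn1 (ENSMUSG00000064267, GRCm38 chromosome 5, 122206804 to 122242297, plus strand) encodes the voltage-gated proton channel that offsets the charge moved by the oxidase. It had 19.4, 13.8, 12.6 and 8.53 CPM in deficient animals 5, 6, 12 and 13, against 9.64, 9.98, 15.8 and 18.3 CPM in controls 2, 3, 10 and 11. The deficient animals were the higher ones in the lower-numbered set and the lower ones in the higher-numbered set. The log2 fold change over all animals was 0.03 (SE 0.28, 95% confidence interval -0.59 to 0.66, edgeR adjusted p = 0.953), with 0.76 among the lower-numbered animals and -0.70 among the higher-numbered ones. The interaction was -1.45 (SE 0.31, unadjusted p 0.00125, edgeR adjusted p = 0.287), which does not pass over all genes, and 0.04% of all genes passed that test. Hvcn1 had 130 to 294 counts a library and shares 1574 exon bases with Tctn1 on the opposite strand, which had 43 to 61 counts.

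The superoxide dismutases did not pass the test. Sod1 (ENSMUSG00000022982, GRCm38 chromosome 16, 90220754 to 90226329, plus strand) encodes the copper and zinc enzyme of the cytosol. It had 96.6, 103, 87.6 and 91.4 CPM in deficient animals 5, 6, 12 and 13, against 102, 102, 78.3 and 84.9 CPM in controls 2, 3, 10 and 11. Its log2 fold change was 0.05 (SE 0.06, 95% confidence interval -0.08 to 0.18, edgeR adjusted p = 0.594). Sod2 (ENSMUSG00000006818, GRCm38 chromosome 17, 13006846 to 13040063, plus strand) encodes the manganese enzyme of mitochondria, a gene induced by inflammatory cytokines. It was at 200.1, 138, 154 and 139 CPM in deficient animals 5, 6, 12 and 13, against 116, 146, 148 and 156 CPM in controls 2, 3, 10 and 11. The highest value was that of deficient animal 5 and the lowest that of control 2, both of the lower-numbered set. This was a log2 fold change of 0.16 (SE 0.13, 95% confidence interval -0.15 to 0.46, edgeR adjusted p = 0.466).

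Cat (ENSMUSG00000027187, GRCm38 chromosome 2, 103453849 to 103485160, minus strand) encodes catalase, the peroxisomal enzyme that breaks down hydrogen peroxide. Its level was 116, 124, 80.0 and 86.8 CPM in deficient animals 5, 6, 12 and 13, against 149, 134, 102 and 121 CPM in controls 2, 3, 10 and 11. Within each set both deficient animals were below both controls. Cat had a log2 fold change of -0.33 (SE 0.08, 95% confidence interval -0.50 to -0.16, edgeR adjusted p = 0.0241), and without the label set the adjusted p was 0.458. By set, it was -0.24 for the lower-numbered animals and -0.42 for the higher-numbered ones (interaction, edgeR adjusted p = 0.901). The call was lost with 1 animal left out in 4 of 8 cases, at an edgeR adjusted p of 0.0800 without deficient 12, 0.0590 without deficient 13, 0.0675 without control 2 and 0.0559 without control 11. Catalase is abundant in hepatocytes, and summed CPM of 14 hepatocyte marker genes ranged from 128 to 155 in deficient animals and from 134 to 405 in controls. Of the 13 tested, 4 fell and 0 rose, where 7.17% of all genes were called lower and 6.44% higher. Within the higher-numbered set the sums were 144 to 152 CPM in deficient animals and 309 to 405 CPM in controls. Within the lower-numbered set they overlapped, at 128 to 155 CPM in deficient animals and 134 to 237 CPM in controls. The part of hepatocyte RNA in the Cat difference was not tested. In sorted populations of this kind, fewer cells of a type and less RNA per cell cannot be told apart.

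Read together, the 9 genes had a median log2 fold change of -0.06, beside a median of -0.00 over all genes tested. The middle of the whole distribution was narrow, with a 25th percentile of -0.18 and a 75th of 0.14. Cybb, Cat and Rac2 lay below the 25th percentile, Sod2 at 0.16 lay above the 75th, and the other 5 genes lay between. For 0 of the 9 genes were the genotypes separate over all 8 animals, where 7.15% of all genes were. For 3 of them, Cybb, Rac2 and Cat, the deficient animals were below the controls in both label sets, as for 13.5% of all genes, while 27% of all genes were separate in the same direction, up or down, in both sets. In the higher-numbered set alone the genotypes were separate for 6 of the 9 (55.4% of all genes) and in the lower-numbered set alone for 5 (49% of all genes), both close to the background.

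The label sets differed in more of these genes than the genotypes did. Between the higher- and the lower-numbered animals, with genotype in the model, 5 of the 9 genes were called, all lower in the higher-numbered set. Over all genes 36.3% were called between the sets and 18% were called lower. Cybb changed the most, with a log2 fold change of -0.89, higher- over lower-numbered set (SE 0.14, edgeR adjusted p = 0.00122). Cat followed with -0.44 (SE 0.08, adjusted p = 0.00223) and Rac2 with -0.43 (SE 0.06, adjusted p = 6.13e-04) in the edgeR test. Ncf4 had -0.31 and Sod1 -0.24. Cyba, Ncf1, Hvcn1 and Sod2 were not called. Ncf1 was just short of a call, with -0.20 (SE 0.07, edgeR adjusted p = 0.0525). Over 17 settings, the main fit included, Ncf1 was called in 7, Ncf4 in 12 and Sod1 in 16. For Cybb, Ncf4, Rac2 and Sod1 the levels of the higher-numbered animals were all below those of the lower-numbered animals, where 24.1% of all genes had separate sets. The 3 genes lower in deficient animals were thus also the 3 with the largest fall between the sets, and deficient animals 12 and 13 had the lowest Cybb, Rac2 and Cat of all 8. The interaction called 0 of the 9 genes.

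**Figure D3:**
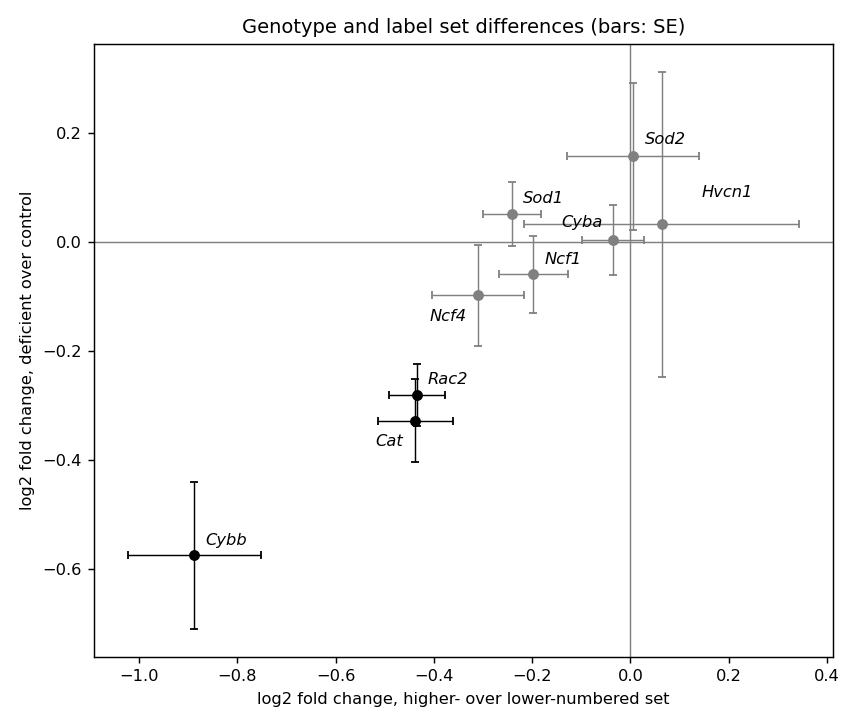
Log2 fold change between the label sets (higher- over lower-numbered, horizontal axis) against that between the genotypes (deficient over control, vertical axis) for the 9 genes, with bars of 1 SE. Black points passed the genotype test and grey points did not. Cybb, at -0.89 and -0.57, is farthest from 0 on both axes, with Rac2 and Cat next.

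Levels were compared between genes after division by the length of the longest protein-coding transcript in GENCODE M21, as CPM per kilobase. Cyba was the highest, at 974 ± 48.8 in deficient animals and 971 ± 42.2 in controls (SD, n = 4 each). Cybb was next, at 218 ± 101 CPM per kilobase in deficient animals and 305 ± 75.2 in controls. Its spread was the widest of the 9, with the label sets apart in both groups. Its range met that of Ncf4 in deficient animals (123 to 332 for Cybb and 141 to 219 for Ncf4) and lay above it in controls (219 to 379 for Cybb and 168 to 216 for Ncf4). Ncf4, Rac2, Sod1 and Ncf1 followed with 136 to 172 CPM per kilobase in deficient animals and 142 to 183 in controls, and their spreads overlap, so their order is not resolved. Cat had 39.0 ± 8.31 CPM per kilobase in deficient animals and 48.5 ± 7.76 in controls, and Sod2 had 26.9 ± 5.01 in deficient animals and 24.1 ± 3.02 in controls. These neighbours overlap in deficient animals and are separate in controls. Hvcn1 was the lowest, with 4.84 ± 1.61 CPM per kilobase in deficient animals and 4.78 ± 1.53 in controls. Among the dismutases the cytosolic enzyme's gene was thus the more abundant per length. In CPM the order was the opposite, with Sod2 above Sod1 in every animal. The order per length rests on the transcript lengths used, 641 bases for Sod1 and 5861 for Sod2. Which transcripts these cells use was not tested.

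**Figure D4:**
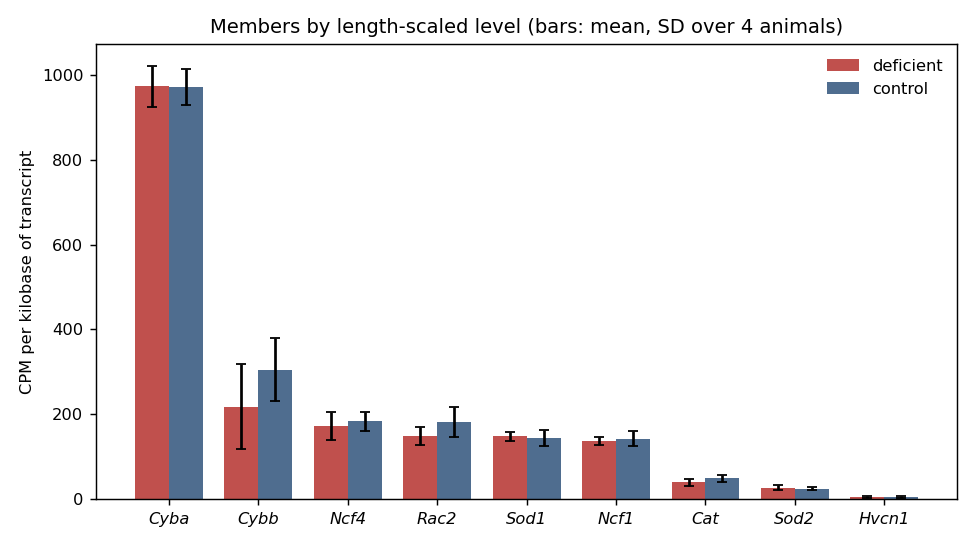
Level of each of the 9 genes in CPM per kilobase of transcript, in order of level, with deficient animals (red) left of controls (blue). Bars are means over 4 animals and the lines their SD. Cyba stands above the rest in both groups, Ncf4, Rac2, Sod1 and Ncf1 overlap, and Hvcn1 is the lowest.

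Further genes of the pathway were read from lists of related genes. Of 18 genes that assemble, activate or tune the oxidase, all were tested, 0 rose and 3 fell, with a median log2 fold change of -0.03, where 13.6% of all genes were called and 7.17% were called lower. Pak1, a kinase that Rac activates, had 63.2, 74.0, 45.7 and 53.4 CPM in deficient animals 5, 6, 12 and 13, against 96.2, 91.2, 68.9 and 76.2 CPM in controls 2, 3, 10 and 11. Its log2 fold change was -0.50 (SE 0.08, edgeR adjusted p = 0.00574). Prex1, an exchange factor that loads Rac with GTP in phagocytes, had 412, 390, 262 and 281 CPM in deficient animals 5, 6, 12 and 13, against 457, 471, 357 and 374 CPM in controls 2, 3, 10 and 11. It fell by 0.32 on the log2 scale (SE 0.06, edgeR adjusted p = 0.0147). Rubcn encodes Rubicon, which binds p22phox and is needed for phagosomes that recruit LC3. It fell by 0.28 (log2, SE 0.07, edgeR adjusted p = 0.0338). All 3, like Rac2, were lower in each deficient animal than in both controls of its set, as were 13.5% of all genes. Without the label set 0 of the 18 passed, and 1 had an unadjusted p under 0.05, where 12.5% of all genes had one. Of 12 genes of other oxidases and peroxidases, 2 have a row in the table and 0 passed the filter on low counts. These are Noxo1, an organiser of another NADPH oxidase, with 1 to 8 counts in deficient animals and 2 to 8 in controls, and Mpo, myeloperoxidase, with 2 to 6 counts in deficient animals and 1 to 4 in controls.

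Among other genes that remove superoxide and peroxide, those that passed were higher in deficient monocytes, where Cat was lower. Of 16 tested, 6 rose and 0 fell, with a median log2 fold change of 0.07, and 6.44% of all genes were called higher. Those that rose were Srxn1, Prdx6, Gsr, Txn1, Txnrd1 and Prdx4, which belong to the peroxiredoxin, thioredoxin and glutathione systems. Srxn1, sulfiredoxin, which repairs over-oxidised peroxiredoxins, had 82.1, 66.6, 113 and 123 CPM in deficient animals 5, 6, 12 and 13, against 35.8, 39.6, 54.0 and 59.2 CPM in controls 2, 3, 10 and 11. Every deficient animal was above every control for Srxn1, and the log2 fold change was 1.02 (SE 0.08, edgeR adjusted p = 0.00100). Prdx6, a peroxiredoxin of the cytosol, had 205, 163, 301 and 279 CPM in deficient animals 5, 6, 12 and 13, against 118, 137, 142 and 173 CPM in controls 2, 3, 10 and 11. It rose by 0.71 (log2, SE 0.11, edgeR adjusted p = 0.00583). Gsr, glutathione reductase, rose by 0.47 (SE 0.09) and Txn1, thioredoxin, by 0.39 (SE 0.05), both on the log2 scale. In these 2 genes too every deficient animal was above every control. Over all genes the genotypes were separate, in either direction, for 7.15%. With the label set left out of the model 0 of the 16 passed, and 6 had an unadjusted p under 0.05, against 12.5% of all genes.

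Of 15 transcription factors known to act on oxidase or dismutase genes, all were tested, 1 rose and 5 fell, with a median log2 fold change of -0.08, where 6.44% of all genes were called higher and 7.17% lower. Cebpb, a C/EBP factor of inflammatory myeloid cells, fell by 0.41 (SE 0.10, edgeR adjusted p = 0.0334) and Cebpa, which drives myeloid commitment, by 0.32 (SE 0.07, edgeR adjusted p = 0.0158), both log2. Of the interferon regulatory factors listed, Irf1 fell by 0.43 (log2, SE 0.11, edgeR adjusted p = 0.0376). Irf8 fell by 0.24 (log2, SE 0.07, edgeR adjusted p = 0.0419). Irf2 did not pass, with a log2 fold change of -0.02 (edgeR adjusted p = 0.876). In the edgeR test without the label set the adjusted p was 0.324 for Irf1 and 0.458 for Irf8. The interferon regulatory factors are named outside the rule for named genes. Without the label set 0 of the 15 passed, and 5 had an unadjusted p under 0.05, where 12.5% of all genes had one. Cebpe, a factor of late granulocyte differentiation, rose to 2.84, 4.30, 7.96 and 6.63 CPM in deficient animals 5, 6, 12 and 13, against 1.63, 1.06, 3.00 and 2.65 CPM in controls 2, 3, 10 and 11. This was a log2 fold change of 1.38 (SE 0.19, edgeR adjusted p = 0.00427) at a low level.

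**Figure D5:**
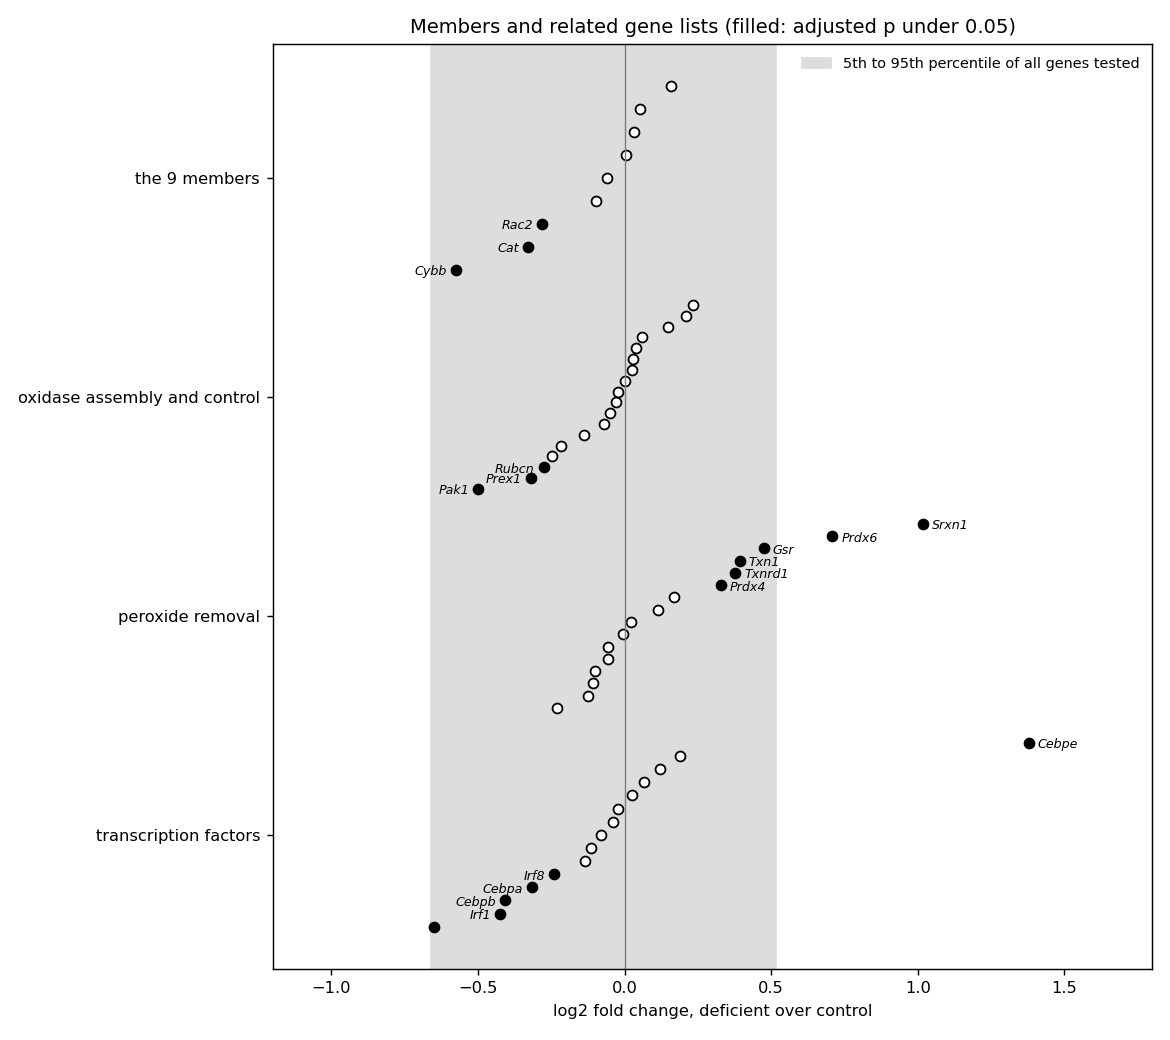
Log2 fold change, deficient over control, of the 9 genes and of the tested genes of 3 related lists, 1 point a gene. Filled points passed the test, and the grey band spans the 5th to 95th percentile of all genes tested. The called genes of the 9 and of oxidase assembly lie left of 0, those of peroxide removal right of 0, and of the transcription factors Cebpe lies right and 5 lie left.

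Neutrophils use the same oxidase and express its genes strongly, so their markers are given beside these results. Of 16 neutrophil markers 14 have a row, 10 were tested, 6 rose and 0 fell. Over all genes 6.44% were called higher and 7.17% lower. Their summed level ranged from 702 to 955 CPM in deficient animals and from 426 to 644 CPM in controls, without overlap. Most of the sum came from Csf3r, Mmp8, Lcn2 and S100a8. S100a8 had 35.3 to 135 CPM in deficient animals and 3.12 to 19.8 CPM in controls. Lcn2 had 88.2 to 209 CPM in deficient animals and 16.6 to 47.7 CPM in controls. Mmp8 had 169 to 241 CPM in deficient animals and 74.9 to 150 CPM in controls. Csf3r overlapped, at 251 to 361 CPM in deficient animals and 322 to 404 CPM in controls. The defining markers Ly6g and Camp have no row in the table, and Mpo reached at most 0.43 CPM in deficient animals and 0.27 CPM in controls. Ngp reached 1.65 CPM in deficient animals and 1.58 CPM in controls, and Elane 1.44 CPM in deficient animals and 0.38 CPM in controls. The part of neutrophil RNA in the Cybb, Rac2, Cat and Cebpe differences was not tested.

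Monocyte markers were read to check the cell type label. Ly6c2, the gene of the sorted antigen, had 212 to 295 CPM in deficient animals and 230 to 355 CPM in controls. Ccr2, the receptor for entry into tissue, had 1052 to 1556 CPM in deficient animals and 1335 to 1725 CPM in controls. Within each label set both deficient animals were below both controls for Ccr2 and Csf1r, as for 13.5% of all genes. For Ly6c2 this held in the lower-numbered set only. Both deficient animals of each set were above both controls for Cd14 and Chil3. In the same direction, up or down, 27% of all genes were separate in both sets. Fcgr1 was lower in every deficient animal (351 to 418 CPM) than in every control (439 to 545 CPM). Itgam (346 to 562 against 272 to 297 CPM) and F13a1 (949 to 1124 against 700 to 824 CPM) were higher in every deficient animal. Such separation was seen for 7.15% of all genes. Of the 10 monocyte markers, Lyz2 included, 3 rose and 2 fell. The background for this and the marker lists below is 6.44% of all genes called higher and 7.17% called lower. The sum of the 10 monocyte markers ranged from 12143 to 17039 CPM in deficient animals and from 19039 to 26123 CPM in controls, without overlap. Lyz2, which carries the Cre and is one of those that fell, had 7358, 5580, 2847 and 314 CPM in deficient animals 5, 6, 12 and 13, against 14685, 16339, 8866 and 10942 CPM in controls 2, 3, 10 and 11. Its log2 fold change was -1.95 (SE 0.57, edgeR adjusted p = 0.0491). Summed without Lyz2, the markers ranged from 9182 to 12720 CPM in deficient animals and from 9255 to 10172 CPM in controls, with overlap. In the higher-numbered set these sums were 11828 to 12720 CPM in deficient animals and 9255 to 10172 CPM in controls, without overlap. In the lower-numbered set they overlapped, at 9182 to 9680 CPM in deficient animals and 9320 to 9784 CPM in controls. Chil3 was a large part of the higher-numbered sums, with 5957 and 4234 CPM in deficient animals 12 and 13, against 3180 and 2324 CPM in controls 10 and 11. Cd14 had 1130 and 1579 CPM in deficient animals 12 and 13, against 665 and 984 CPM in controls 10 and 11. Kupffer cell markers summed to 96.0 to 179 CPM in deficient animals and 88.0 to 255 CPM in controls, with 2 of 10 tested lower. In the lower-numbered set these sums did not overlap, at 163 to 179 CPM in deficient animals and 248 to 255 CPM in controls. In the higher-numbered set they overlapped. Most of the sum came from Hpgd and Slc40a1. Within each set Hpgd was lower and Slc40a1 higher in both deficient animals than in both controls. Dendritic cell markers summed to 8.59 to 14.3 CPM in deficient animals and 15.9 to 28.5 CPM in controls, with 3 of 6 lower. Lymphocyte markers (1 of 7 lower) and endothelial and stellate markers (1 of 6 lower) overlap between the groups, and of the 3 tested erythroid markers 0 passed. The endothelial and stellate sum was 140 to 198 CPM in deficient animals and 129 to 135 CPM in controls of the higher-numbered set, and 25.3 to 75.1 CPM in deficient animals and 28.6 to 28.7 CPM in controls of the lower-numbered set. This sum was thus higher in the higher-numbered set, where Cybb, Rac2 and Cat were lower, and its part in their differences was not tested. Pecam1 made up much of it, with 12.2, 64.3, 174 and 111 CPM in deficient animals 5, 6, 12 and 13, against 13.04, 11.8, 105 and 49.0 CPM in controls 2, 3, 10 and 11. The endothelial receptor gene Kdr had 8.45 to 9.97 CPM in deficient animals and 9.10 to 29.8 CPM in controls.

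The genes whose profile over the 8 animals was most like that of Cybb were Trip6, Ccdc125 and Parp8. Likeness was measured as the root mean square difference of gene-centred log2 CPM, which was 0.0913, 0.0917 and 0.0943 for these genes, against a spread of 0.562 for Cybb itself. Their log2 fold changes, deficient over control, were -0.48 (SE 0.14) for Trip6, -0.59 (SE 0.16) for Ccdc125 and -0.61 (SE 0.13) for Parp8. As these genes were chosen for their likeness to Cybb, values near its own follow from the choice. For Sod2 the most alike were Mllt6, Icam1 and Pik3r5, at 0.0770, 0.0799 and 0.0838 against a spread of 0.208. The 8 libraries share the label sets, and such likeness is a description of these animals.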

How the data were processed

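Raw counts per gene and library are as the authors deposited them; 8 further columns of per-sample values were not used. The submitters' processing notes name the GRCm38 build, DESeq2 1.26.0, HTSeq 0.12.4, STAR 2.7.3a and cutadapt, with no roles stated. The table has 15337 rows, of which 1 is the cre transgene, left out of library sizes. Each gene reaches at least 6 counts in some library. GENCODE M21 holds 15324 of the gene identifiers.

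The tests used edgeR 4.0.16 in R 4.3.3. The filter filterByExpr (minimum count 10, minimum total 15) on the genotype and label set design left 12500 genes and removed 2836. Trimmed mean of M-values (TMM) factors ranged from 0.944 to 1.04. The quasi-likelihood F-test is two-sided, and SE values come from the fit. Log2 CPM used a prior count of 2. The model took the label set as covariate, and the one without it is given beside it. The genes and lists were chosen with earlier results of these data known. All 9 genes are named, with up to 4 called genes of each list by smallest p and the 3 most alike Cybb and Sod2. Some list genes are not reported here. Alternatives were DESeq2 1.42.0, limma voom (limma 3.58.1), relative log expression (RLE) and upper-quartile factors, no or a stricter filter, a surrogate variable (sva 3.50.0), other thresholds, each label set alone, and leaving out each animal. The tests were first run on simulated counts. No molecular identifiers are described, so counts may include copies of 1 molecule.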

Additional observations from a re-analysis of the deposited data

Results flagged for a closer look

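The level of Cyba in control 10 stood apart from the other controls. It was 676 CPM, against 736 to 743 CPM in controls 2, 3 and 11, and its gap to the nearest of them was 0.893 of the range of the group, above Dixon's critical value for 4 samples. It was the 1 value so marked in 36 groups of 4 animals tested (9 genes and 9 sums of marker genes in both genotypes), where chance marks about 1 in 20. The 4 deficient animals had 689 to 759 CPM, and Cyba was not called with or without control 10.

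Hvcn1 had genotype differences of opposite sign in the label sets. Deficient over control, it was 0.76 among lower-numbered animals and -0.70 among higher-numbered ones on the log2 scale, an interaction of -1.45 (SE 0.31, unadjusted p 0.00125). The adjusted p was 0.287 in edgeR and 0.0150 in DESeq2, and ranged from 0.0150 to 0.592 over 17 settings. Every deficient animal of the lower-numbered set was above both of its controls, and both deficient animals of the higher-numbered set were below theirs. With 2 animals of each genotype in a set, and 130 to 294 counts a library, the values rest on few animals and low counts.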

How the results depend on the processing

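No paired analysis was possible because the labels do not say which deficient and control animals were littermates of each other. The model with the label set called 1701 genes, 805 higher and 896 lower in deficient animals, and 3 of the 9. Without the label set it called 0 genes and 0 of the 9, and with 1 surrogate variable in its place 209 and 0. An adjusted p under 0.01 left 408 genes and 0 of the 9 (3 for the label set), and one under 0.1 gave 2728 genes. The lower-numbered set alone gave 46 genes and 0 of the 9, the higher-numbered set alone 646 and 1. DESeq2 called 1 interaction, Hvcn1. Between the label sets DESeq2, limma voom and upper-quartile factors each called 6 of the 9, and leaving out 1 animal gave 4 to 5. Upper-quartile factors gave 606 higher and 1062 lower. Leaving out 1 animal gave 701 to 1672 genes and 1 to 3 of the 9. The count was 701 without deficient 12, 989 without deficient 13, 988 without control 2 and 745 without control 11. Cybb lost its call without deficient 6 (adjusted p = 0.0535, edgeR), deficient 12 (0.0741), deficient 13 (0.0694) or control 11 (0.0543), and Cat without deficient 12 (0.0800), deficient 13 (0.0590), control 2 (0.0675) or control 11 (0.0559). Rac2 kept its call in all 8. Over all 20 alternatives Rac2 kept it in 15, Cybb in 12 and Cat in 11, and none of these changed sign. With the surrogate variable Cybb had -0.30, Rac2 -0.15 and Cat -0.19, over 1.5 times smaller. Among genes not called, the sign turned in these cases. With the surrogate variable Ncf1 had 0.00095 and Ncf4 0.00098. Cyba had -0.028 with upper-quartile factors, -0.012 with the 5 CPM filter and -0.0295 in the lower-numbered set, where Sod1 had -0.0287. In the higher-numbered set Ncf1 had 0.043, Hvcn1 -0.70 and Sod2 -0.060. Leaving out 1 animal gave Cyba -0.029 to 0.032, Hvcn1 -0.22 to 0.29 and Sod2 -0.0041 to 0.23. Depth limits Hvcn1 the most, with 130 counts in its lowest library.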
